A study of Mus musculus with 14 samples.

Results

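Gene expression in the striatum and the cerebellum of normal adult mice was compared in 7 of the series' 14 libraries, chosen by their labels alone. Striatum was represented by 3 libraries and cerebellum by 4. All 7 came from wildtype (WT) mice on the C57Bl/6 background, 6 months old, which were littermates of mice with a conditional knockout (cKO) of Thap1, the transcription factor gene mutated in the dystonia DYT6. The remaining libraries, 3 of striatum and 4 of cerebellum from Thap1 cKO mice of the same strain and age, served only to repeat the comparison. Each region was microdissected and frozen before total RNA was extracted, so a library mixes the RNA of all cells of the piece. No subdivision of either region is labelled, and no source used here gives the alleles that the littermates may have carried, such as a Cre transgene. Animals are not identified either. The p-values therefore measure the spread between these libraries, which may be partly technical.

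The striatum is the input nucleus of the basal ganglia. Nearly all of its neurons are GABAergic projection neurons, which form a direct pathway (marked by dopamine receptor gene Drd1, substance P and dynorphin) and an indirect pathway (marked by Drd2, the adenosine receptor gene Adora2a and enkephalin); cholinergic and GABAergic interneurons make up the rest. The cerebellum holds the most numerous neurons of the brain, the glutamatergic granule cells. Their parallel fibres drive the GABAergic Purkinje cells, the only output of the cerebellar cortex, beside molecular layer interneurons, Golgi cells, unipolar brush cells and Bergmann glia. The regions derive from opposite ends of the embryonic brain, patterned by separate sets of transcription factors.

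Library totals were 12595941 to 13499875 counts in striatum and 19458954 to 24331760 in cerebellum, so that depth moved with region; with the cerebellar counts thinned to striatal depth, 9221 genes were called in place of the 9646 given below. At least 1 count was present for 16477 to 16617 genes per striatal library and for 17363 to 17560 per cerebellar library. Region took 90.2% of the variance of log2 CPM (CPM, a gene's count as its part of the library total, scaled by trimmed-mean, TMM, factors) on the leading principal component. Striatal replicate 1 stood apart from the other striatal libraries: its median log2 ratio to them ran from -0.33 in the quartile of genes with the shortest exons to 0.24 in the quartile with the longest. In the cerebellar libraries no such median passed 0.02. The biological coefficient of variation within striatum was 0.180 with that library and 0.0784 without it, beside 0.0769 in cerebellum. Cerebellar replicate 2 was the highest of its region for 198 of the 322 genes that were at least 16-fold higher in striatum, or 65.6% of those with a count. Their summed level was 1794 CPM in that library and 1406 to 1431 CPM in the other cerebellar ones, that is 3.21% and 2.52 to 2.56% of the striatal sum. Cerebellar replicate 3 held few transcripts of the choroid plexus. Calls made without these libraries are given below for some genes and lists. Counts of other lists also moved without them.

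Of 15031 genes with enough counts to test, 9646 differed between the regions (64.2% of the genes tested; edgeR quasi-likelihood test, Benjamini-Hochberg adjusted p under 0.05). Striatum was the higher region for 4738 of them (31.5%) and cerebellum for 4908 (32.7%). With factors taken from library totals in place of TMM factors, the split became 3762 and 6381, and the median log2 fold change of all genes moved from -0.03 to -0.20. Many of the differences were small, the median of their absolute size over all genes being 0.51 on the log2 scale, and gene groups are therefore described below by calls of at least 2-fold. There were 2215 such calls for striatum (14.7%) and 2120 for cerebellum (14.1%), or 1884 and 2470 under library totals. Both percentages are shares of all genes tested and stand beside the counts of every group below. A test of the fold itself against 2 called 3120 genes in either direction (20.8%). At least 16-fold higher were 322 genes in striatum and 375 in cerebellum. Genes with a mean under 0.1 CPM in 1 region and at least 10 CPM in the other numbered 28 for striatum and 36 for cerebellum. In bulk tissue, fewer cells of a type and less RNA per cell cannot be told apart. "Higher" and "lower" below are written only of genes that passed the test at an adjusted p under 0.05, and log2 fold changes, given in parentheses after the levels, are striatum minus cerebellum. Of the 241 genes named in the text, 231 passed; their standard errors on the log2 scale were 0.0593 to 2.06 with a median of 0.176, and the largest adjusted p was 0.0309. All levels in CPM are listed in the order of the replicates, 1 to 3 for striatum and 1 to 4 for cerebellum. The genes that were at least 2-fold higher in striatum took 25 to 25.6% of the counts of a striatal library and 6.5 to 6.9% of a cerebellar one.

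**Figure D1:**
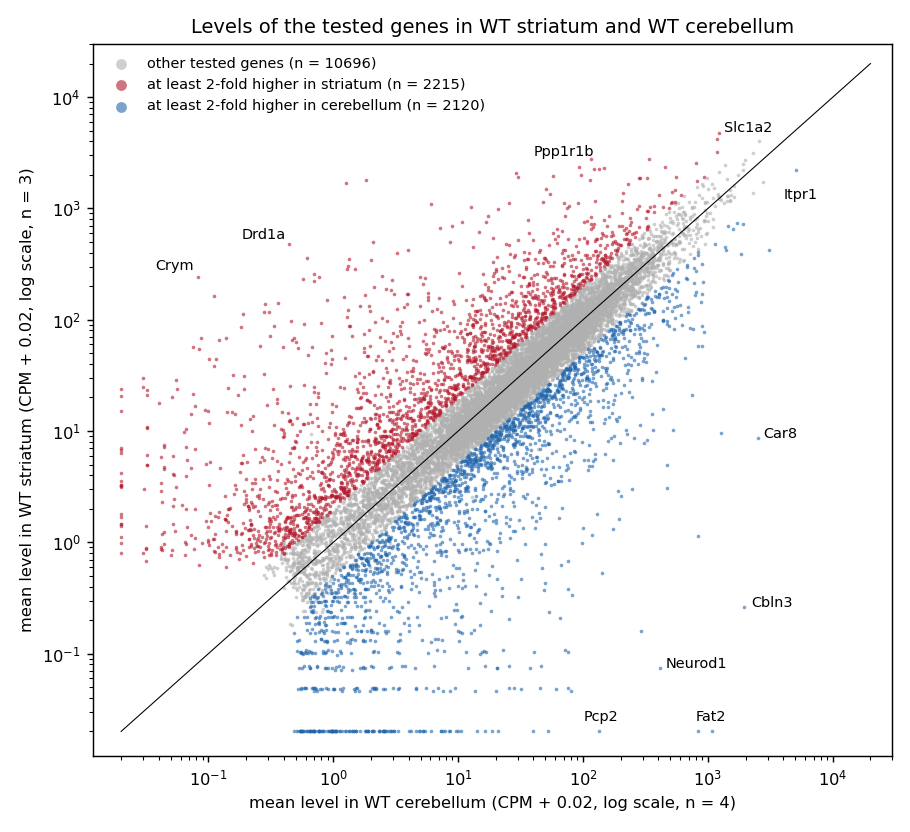
Each point is 1 of the 15031 tested genes, placed by its mean level in WT cerebellum (x axis, n = 4) and WT striatum (y axis, n = 3) in CPM on log scales. Red and blue points are the 2215 and 2120 genes called at least 2-fold higher in striatum or cerebellum; Fat2 and Pcp2, with 0 counts in every striatal library, lie on the lower edge.

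The 250 bases before the transcription start are shown for 3 genes of each direction, since these genes had at most a few counts in 1 of the regions (RefSeq, GRCm38.p6, 5′ to 3′ on the gene's strand, CpG dinucleotides in capitals). They have the largest log2 fold changes among the genes with 1 promoter entry in RefSeq whose start lies within 5 bases of the one in GENCODE. Sec14l3, Gpx6, Fat2, Cbln3 and Neurod1 ranked among them but are not shown, because the RefSeq start lies 12 to 24307 bases inside the GENCODE gene. For striatum they are Slc18a3, the vesicular acetylcholine transporter gene, at chr14:32464851-32465100, Isl1, a factor of direct pathway neurons, at chr13:116309689-116309938, and Gpr6, a receptor gene of indirect pathway neurons, at chr10:41072291-41072540. For cerebellum they are Gabra6, the granule cell subunit of the GABA-A receptor, at chr11:42321073-42321322, Lhx1, a factor of Purkinje cells, at chr11:84525535-84525784, and Barhl2, a homeodomain factor, at chr5:106458167-106458416. All 6 are on the minus strand, and the stretch of Slc18a3 lies within the gene Chat. On the plus strand, an exon of Gm2990 overlaps its bases 32465042 to 32465100. Exons of Lhx1os, also on the plus strand, overlap bases 84525660 to 84525748 of the Lhx1 stretch.
Slc18a3: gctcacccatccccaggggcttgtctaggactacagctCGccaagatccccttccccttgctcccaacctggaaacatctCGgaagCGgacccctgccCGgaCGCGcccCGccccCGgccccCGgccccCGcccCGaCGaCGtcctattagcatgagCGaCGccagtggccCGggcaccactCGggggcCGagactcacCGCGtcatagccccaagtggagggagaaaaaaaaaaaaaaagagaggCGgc
Isl1: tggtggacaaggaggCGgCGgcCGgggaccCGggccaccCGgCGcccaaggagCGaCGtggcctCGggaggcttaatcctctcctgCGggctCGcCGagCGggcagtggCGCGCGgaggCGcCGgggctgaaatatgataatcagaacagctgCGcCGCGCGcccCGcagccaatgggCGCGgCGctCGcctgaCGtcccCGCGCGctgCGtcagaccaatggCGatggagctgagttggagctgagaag
Gpr6: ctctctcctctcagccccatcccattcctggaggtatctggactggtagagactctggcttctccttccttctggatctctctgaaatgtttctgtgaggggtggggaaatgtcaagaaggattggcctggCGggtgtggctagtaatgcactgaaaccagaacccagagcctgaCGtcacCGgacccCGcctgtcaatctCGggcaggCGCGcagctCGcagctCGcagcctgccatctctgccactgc
Gabra6: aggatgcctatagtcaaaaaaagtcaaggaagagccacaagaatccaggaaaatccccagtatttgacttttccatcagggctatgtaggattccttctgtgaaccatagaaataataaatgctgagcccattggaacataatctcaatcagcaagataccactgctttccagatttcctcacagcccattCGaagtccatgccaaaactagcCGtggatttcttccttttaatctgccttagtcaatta
Lhx1: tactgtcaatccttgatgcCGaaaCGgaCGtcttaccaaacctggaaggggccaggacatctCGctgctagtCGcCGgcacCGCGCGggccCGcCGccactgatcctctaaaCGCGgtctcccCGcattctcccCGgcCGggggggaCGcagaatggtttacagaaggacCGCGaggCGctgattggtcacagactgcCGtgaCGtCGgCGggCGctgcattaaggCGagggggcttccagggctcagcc
Barhl2: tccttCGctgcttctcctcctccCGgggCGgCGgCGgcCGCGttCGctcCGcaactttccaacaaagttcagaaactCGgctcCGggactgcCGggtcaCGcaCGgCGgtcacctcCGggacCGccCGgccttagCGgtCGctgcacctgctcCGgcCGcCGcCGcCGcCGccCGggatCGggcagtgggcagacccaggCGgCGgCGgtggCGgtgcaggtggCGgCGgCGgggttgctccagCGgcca
Barhl2, Isl1, Lhx1 and Slc18a3 hold 36, 33, 26 and 21 CpG, with observed over expected ratios of 1.03, 1.05, 0.991 and 0.8. Gpr6 holds 9 CpG (0.424) and Gabra6 2 (0.198). Over 27018 promoters of the table, 1 per symbol, the median was 6 CpG and a ratio of 0.378, with quartiles of 0.165 and 0.726. These 6 were picked by their fold change, and no test was made of them.

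The genes named for the largest fold changes were taken from those without overlap between the libraries of the regions. Such genes numbered 9866 of the 15031 tested. Sec14l3, of a lipid-transfer protein family, stood at 15.1, 34.1 and 22.3 CPM in the striatal libraries and had 0 counts in all cerebellar ones, which makes it at least 720.1-fold higher in striatum (against a floor of 3 counts over the group, as for every such bound below). Gpx6, a glutathione peroxidase gene also at 0 in each cerebellar library, was at 14.4, 30.5 and 16.6 CPM and at least 619-fold higher. In both genes replicate 2 was the highest and replicate 1 the lowest of the striatal libraries. Fat2, an atypical cadherin gene of granule cells, had 1107, 960.4, 1086 and 1126 CPM in the cerebellar libraries and no count in striatum, at least 12948-fold lower there. Gabra6 was likewise absent from all striatal counts beside 857, 711, 896 and 849 CPM in cerebellum, at least a 10022-fold difference.

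Genes of the striatal projection neurons were higher in striatum. Of 20 markers shared by both pathways, 19 were at least 2-fold higher in striatum and none lower, with a median log2 fold change of 4.9 beside -0.03 over all genes tested. Ppp1r1b, which encodes the dopamine- and cAMP-regulated phosphoprotein DARPP-32 and lies on chromosome 11, bases 98348404 to 98357796, had 1585, 2460.1 and 2798 CPM in the striatal libraries and 129, 158, 120.1 and 127 CPM in the cerebellar ones, a log2 fold change of 4.09 (adjusted p = 1.03e-07). Its annotation overlaps a gene on the opposite strand, and the strand setting of the counting is not given in the sources used here. Replicate 1 was the lowest striatal library for Ppp1r1b and still clear of the cerebellar range. Strip2, listed under its older symbol Fam40b, was the exception, with 356, 371 and 528 CPM against 249, 257, 266 and 287 CPM (0.66), higher but under 2-fold.

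The dopamine transduction list, which overlaps the marker list, showed how far the second-messenger chain of these neurons differed. Of 32 tested genes, 27 were at least 2-fold higher in striatum and none in cerebellum, or 1 without striatal replicate 3. The D1-class receptor gene Drd1, Drd1a in the files, was at 519, 462 and 455 CPM in striatum and 0.379, 0.485, 0.301 and 0.509 CPM in cerebellum (10.13, adjusted p = 1.89e-10). Drd2 was at 256.3, 246 and 228 CPM against 0.473, 1.7, 0.344 and 0.47 CPM (8.38), with cerebellar replicate 2 more than 3 times as high as the others of its region. Drd3 and Drd5, at means of 2.56 and 4.14 CPM in striatum, were also higher there (4.45 and 3.01). Per kilobase of exon, Drd1 made up 57.3% ± 0.954 and Drd2 41.5% ± 0.951 of the dopamine receptor transcripts of striatum (SD, n = 3).

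Genes that act between these receptors and cyclic AMP differed in both directions. Gnal encodes the stimulatory G protein alpha subunit of striatum and olfactory epithelium, and was at 1474, 1281 and 1338 CPM against 199, 217, 204 and 209.8 CPM (2.72). The ubiquitous Gnas was the reverse, at 492, 466 and 489 and 946, 987, 943 and 933 CPM (-0.98). Every striatal library was above every cerebellar one for Gnal and below for Gnas. Per length, Gnal made up 73.9% ± 0.977 of these alpha subunit transcripts in striatum and 17.9% ± 0.423 in cerebellum. Gng7, the gamma subunit of that complex, was at 1878, 2249 and 2143 CPM against 27.6, 28.3, 29.4 and 30.9 CPM (6.17). The libraries of the regions did not overlap for Gng7. Adcy5, the adenylyl cyclase that the complex activates, had 1998, 1809 and 2068 CPM in striatum and 51.9, 67.8, 54.2 and 54.2 CPM in cerebellum (5.1). Adcy1, the calcium-stimulated cyclase, was at 499.6, 355 and 411 CPM and 2915, 3032, 3213 and 3199 CPM (-2.87). The cyclases exchanged rank. Adcy5 held 74.6% ± 2.04 of the summed adenylyl cyclase level per length in striatum, and Adcy1 83.7% ± 0.927 in cerebellum.

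Cyclic nucleotide breakdown differed as well. Of 19 phosphodiesterase genes tested, 9 were at least 2-fold higher in striatum and 4 in cerebellum. Pde10a, a dual-substrate enzyme of projection neurons, was at 3536, 2409.97 and 2389 CPM against 99.5, 119.97, 139 and 107 CPM (4.58), Pde1b at 1813 to 1989.6 CPM against 25.4 to 36.2 (6.00), and Pde2a at 1136 to 1154 CPM against 41.6 to 51.4 (4.6). The cyclic GMP enzyme genes Pde5a (9.03, 4.28 and 5.44 CPM against 138, 160.03, 143 and 156; -4.59) and Pde9a (-1.77) were lower in striatum. Soluble guanylyl cyclase, the nitric oxide receptor, was higher in striatum through both subunits, Gucy1a3 (1.88) and Gucy1b3 (1.82). Among regulators of G protein signalling, which end the signal of G proteins, 9 of 17 tested were at least 2-fold higher in striatum and 2 in cerebellum. Rgs9 was at 1123, 974 and 996 CPM against 11.5, 13.7, 13.7 and 11.5 (6.35), Rgs14 at 102 to 119.6 CPM against 0.0947 to 0.291 (9.35) and Rgs4 at 800.3 to 942 CPM against 15.3 to 22.1 (5.64). Rgs8, known from Purkinje cells, was higher in cerebellum, at 424, 371 and 361 CPM against 1719.7, 1868, 1902 and 1851 CPM (-2.25).

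**Figure D2:**
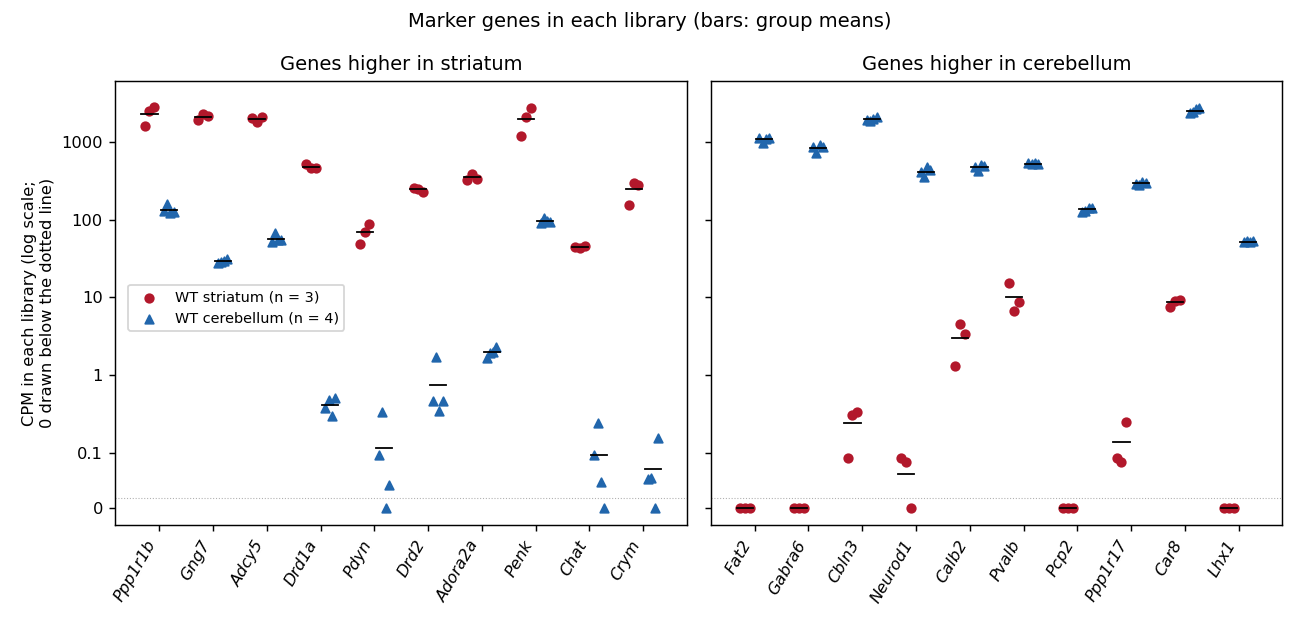
CPM of 10 genes higher in striatum (left) and 10 higher in cerebellum (right) in each library, on a log axis; circles are the 3 WT striatal and triangles the 4 WT cerebellar libraries, bars the means, and 0 is drawn below the dotted line. As for 9866 of the 15031 genes tested, the regions do not overlap for any gene shown. Drd1a ranges from 455 to 519 CPM in striatum and stays at or under 0.509 CPM in cerebellum.

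Markers of both projection pathways were present in every striatal library. Of 10 direct pathway genes tested, 7 were at least 2-fold higher in striatum and 1 lower; of 10 indirect pathway genes, 8 were higher by that fold and none lower by it. Pdyn, the dynorphin precursor gene, was at 48.2, 69.6 and 88.2 CPM in striatum and 0.0947, 0.339, 0 and 0.0392 CPM in cerebellum (9.19), and the substance P precursor gene Tac1 at 205, 334 and 370.3 CPM against 0.663, 4.12, 0.215 and 0.196 CPM (7.94). Isl1, the transcription factor of direct pathway neurons, was at 23.3, 21.4 and 18.7 CPM and was counted in a single cerebellar library, at 0.0485 CPM (10.2). Adora2a stood at 324, 381 and 336 CPM against 1.66, 1.94, 1.98 and 2.31 CPM (7.45, adjusted p = 1.89e-10) and the enkephalin precursor gene Penk at 1187, 2082 and 2675 CPM against 91.5, 104, 94.5 and 92.3 CPM (4.37). Gpr6, a constitutively active receptor gene of indirect pathway neurons, was at 61.9, 75.4 and 67.7 CPM and at most 0.142 CPM in cerebellum (9.87). The peptide genes Penk, Tac1 and Pdyn were all lowest in striatal replicate 1, while the receptor genes Drd1 and Drd2 were highest there. Ebf1, a direct pathway marker on the list, was the gene lower in striatum by more than 2-fold, at 15.8, 11.9 and 12.4 CPM against 44.4, 43.4, 44.6 and 39.3 CPM (-1.68).

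Genes of cholinergic interneurons were higher in striatum. Chat, the acetylcholine-synthesising enzyme gene, was at 44.9, 43.2 and 45.9 CPM in striatum and 0.0947, 0.242, 0.043 and 0 CPM in cerebellum (8.87). Slc18a3, shown above by its promoter, was at 16.4, 14 and 15.3 CPM and had 0 counts in every cerebellar library, at least 460.3-fold higher in striatum. The choline transporter gene Slc5a7 (8.12), the transcription factor gene Lhx8 (9.2) and Ecel1 (7.19) went the same way. Somatostatin (Sst) was at 89.1, 151 and 147 CPM against 2.18, 8.97, 1.59 and 1.8 CPM (5.18) and neuropeptide Y (Npy) at 23.4, 54.3 and 55.8 CPM against a mean of 9.93 CPM (2.16), both lowest in striatal replicate 1. Parvalbumin (Pvalb) and calretinin (Calb2), which mark further striatal interneurons but are also made by cerebellar neurons, were lower in striatum, with 15.4, 6.78 and 8.62 CPM against 531, 513, 530.2 and 511 CPM (-5.68) and 1.3, 4.52 and 3.35 CPM against 468, 416, 508 and 486 CPM (-7.24). In all, 9 of 14 interneuron genes were at least 2-fold higher in striatum and 3 in cerebellum.

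All 17 tested genes of the granule cell list were higher in cerebellum, 15 by at least 2-fold, with a median log2 fold change of -5.3. Beside Fat2 and Gabra6, the cerebellin gene Cbln3 was at 1917, 1819, 1933 and 2072 CPM in the cerebellar libraries and at 0.0868, 0.312 and 0.335 CPM in striatum (-12.89, adjusted p = 1.89e-10). Cbln1, whose product links parallel fibres to Purkinje cells, was at 826, 776, 840.4 and 914 CPM against 1.3, 0.857 and 1.17 CPM in striatum (-9.56). Per length, Cbln3 and Cbln1 made up 58.9% and 40.9% of the cerebellin transcripts of cerebellum. The granule cell differentiation factor gene Neurod1 had 403, 349, 467 and 434 CPM against 0.0868, 0.0779 and 0 CPM (-12.7), with an annotated overlap with Cerkl on the same strand. Slc17a7, the vesicular glutamate transporter gene of granule cells, was at 446, 449, 502 and 485 CPM in cerebellum and 3.39, 8.88 and 2.51 CPM in striatum (-6.56). Slc17a8, the transporter gene that striatal cholinergic interneurons use, was the reverse, at 34.1, 30.2 and 31.7 CPM in striatum and 0.189, 0.145, 0.215 and 0 CPM in cerebellum (7.84). Libraries of the regions did not overlap for either transporter gene. The vesicular glutamate transporters per length were 94.3% Slc17a7 in cerebellum and 84.2% Slc17a8 in striatum. The granule cell genes with the smallest differences were Reln (-0.61) and Gabrd (-0.58).

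Purkinje cells, few in number but large, were seen through 17 tested genes, 13 of them at least 2-fold higher in cerebellum and 3 in striatum. Pcp2, a Purkinje cell protein gene, was at 127, 129.6, 143 and 139.6 CPM and had 0 counts in every striatal library, at least 1629-fold lower there. Car8, which encodes a protein that binds the inositol trisphosphate receptor, was at 2312, 2417, 2633 and 2667 CPM against 7.56, 9.11 and 9.37 CPM (-8.17). Ppp1r17, a phosphatase inhibitor gene, was at 286, 276, 307 and 298 CPM against 0.0868, 0.0779 and 0.251 CPM (-10.98). These 3 genes varied little between the cerebellar libraries, and so did Arhgef33, at 195, 191, 194 and 193 CPM against 1.22, 1.95 and 1.59 CPM (-6.92). Other Purkinje markers were expressed in both regions. Calb1, calbindin, was at 1393, 1308, 1469 and 1449 CPM against 349.7, 456 and 470.4 CPM (-1.72) and the receptor gene Itpr1 at 5034, 5221, 5079 and 5011 CPM against 2419.97, 2078 and 2108 CPM (-1.21). Striatum was the higher region for Gad2, the GABA-synthesising enzyme gene (967, 706 and 1045 CPM against 203, 212, 198 and 202; 2.15), Foxp2 (3.09) and Itpka (1.07). Pcp4 was at 343, 667 and 644 CPM in striatum and 477, 433, 471 and 461 CPM in cerebellum, a log2 fold change of 0.26 that did not pass the test (adjusted p = 0.277), and the regions overlapped; without striatal replicate 1 it was 0.51 and passed (adjusted p = 3.9e-06).

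Of the other cerebellar neurons, 8 of 12 genes of molecular layer interneurons and Golgi cells and all 8 of the unipolar brush cell list were at least 2-fold higher in cerebellum. Slc6a5, the neuronal glycine transporter gene of Golgi cells, was at 14.3, 18.5, 14.9 and 14.3 CPM against 0.0868, 0.0779 and 0.0837 CPM (-7.44), and Tfap2b, a factor of the molecular layer interneuron lineage, at 74.5, 67.5, 62.1 and 61.2 CPM against 1.48, 0.0779 and 0.251 CPM (-6.82). Eomes, the transcription factor gene of unipolar brush cells, ranged more widely, at 23, 16.1, 29.2 and 11.5 CPM in the cerebellar libraries and 0, 0.0779 and 0 CPM in striatum (-9.18). Sorcs3, listed for molecular layer interneurons, was higher in striatum (42.7, 41.1 and 90.7 CPM against 29.9, 31.3, 25.2 and 26.5; 1.04), with striatal replicate 3 well above the others; without that library, or without cerebellar replicate 3, no gene of the list was at least 2-fold higher in striatum.

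**Figure D3:**
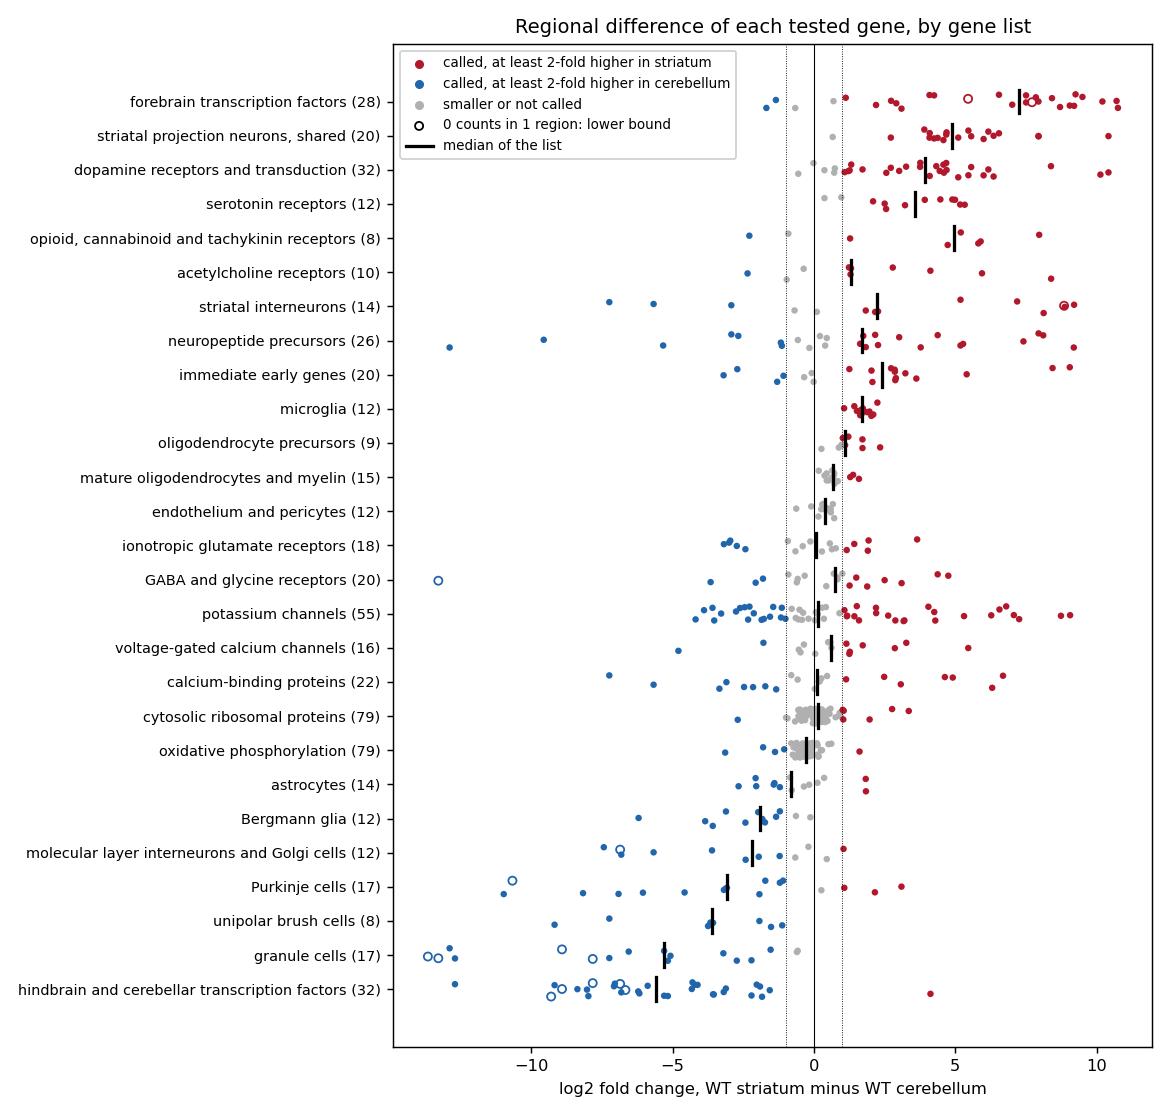
Log2 fold change (x axis, striatum minus cerebellum) of each tested gene of 27 lists (number tested in parentheses); black ticks are list medians, coloured points passed the test with at least 2-fold, and open circles are lower bounds for genes with 0 counts in 1 region. Medians run from -5.59 for hindbrain and cerebellar transcription factors to 7.26 for forebrain ones. The ribosomal, respiratory and potassium channel lists lie near 0 and the calcium channel list at 0.6.

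Transcription factors of the developing brain remained sharply divided in the adult. Of 28 forebrain factors tested, 24 were at least 2-fold higher in striatum and 2 in cerebellum, with a median log2 fold change of 7.5, or 7.26 with the genes at 0 in cerebellum set to their bounds. The cerebellar ones were Ebf1, given above, and Foxp4 (-1.35). Of 32 hindbrain and cerebellar factors tested, 31 were higher in cerebellum by that fold and 1 in striatum, with a median of -5.59. The Dlx genes, which specify forebrain GABAergic neurons, were all higher in striatum, from Dlx1 (7.5) and Dlx2 (8.42) to Dlx5 (9.25) and Dlx6, at 26.6, 32.3 and 30.7 CPM and counted in a single cerebellar library (10.7). Bcl11b (7.94), Meis2 (6.54) and Rxrg (8.7), factors of striatal projection neurons, followed. The antisense transcript Dlx6as1 of the Dlx5 and Dlx6 locus was at 62.4, 57 and 44.8 CPM against 0.0473, 0.0485, 0.043 and 0.118 CPM (9.55). The Dlx genes named here and Dlx6as1 had at most 3 counts in any cerebellar library. The striatal factor Sp9 was at 26.1, 30.3 and 30.4 CPM and at most 0.0485 CPM in cerebellum (9.5); it overlaps Cir1 on the opposite strand.

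On the cerebellar side, Lhx1, a LIM-homeodomain factor of Purkinje cells, was at 51.3, 52.3, 51.6 and 53.2 CPM and had 0 counts in striatum, at least 630.2-fold lower there. Barhl2 (at least 483-fold), Uncx (at least 227-fold), Pax2 (at least 116-fold) and Pax3 (at least 102-fold) were also at 0 in every striatal library, as was Skor2, a corepressor gene of Purkinje cells, at 14.3, 15.7, 13.4 and 13.5 CPM in cerebellum (at least 172-fold). Mab21l1, a developmental gene that overlaps Nbea on the opposite strand, was at 71.2, 64.3, 80.5 and 68.3 CPM against 0.261, 0 and 0 CPM (-9.63). En2, an engrailed gene of the mid-hindbrain, was at 181, 171, 172 and 166 CPM against 2.52, 0.779 and 0.586 CPM (-7.08), and Pax6 at 115, 102, 112 and 111 CPM against 4.95, 4.99 and 6.53 CPM (-4.32). Zic1 (-5.17), Zic2 (-5.3), Zic4 (-4.12) and Zic5 (-6.18), zinc-finger factor genes, were higher in cerebellum. Gbx2 was the exception, at 1.3, 1.01 and 0.92 CPM in striatum and 0.0473, 0.145, 0 and 0.0392 CPM in cerebellum (4.12). None of 21 Hox genes, the factors of more posterior hindbrain and spinal cord, had enough counts to test. Their summed level was 4.752 CPM in cerebellar replicate 2, 0.430 to 0.852 CPM in the other cerebellar libraries and at most 0.156 CPM in striatum. Lhx9 (0.805, 5.09, 0.558 and 1.41 CPM) and Slc17a6 (20.4, 44.1, 22.7 and 25.4 CPM), markers of brainstem and deep nuclei, were highest in the same library, as were 8 of the 12 members of that list. The sum of the list, most of it Pvalb, was 636.1 CPM there and 609.8 to 626.2 CPM in the others. Without Pvalb and Meis1 the sum, most of it Slc17a6, was 70.6 CPM there and 37.5 to 43.3 CPM in the others. The call of Lhx9 (adjusted p = 0.0309) was lost without any 1 striatal library (0.0844 to 0.116), and the part of neighbouring tissue in the profile of replicate 2 was not tested.

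Ionotropic glutamate receptors changed by subunit rather than as a group, 5 of 18 being at least 2-fold higher in striatum and 5 in cerebellum. Among AMPA receptor subunits, Gria2, which limits calcium entry, was at 1305, 1161 and 993 CPM against 540.3, 494, 512 and 523 CPM (1.16), and Gria4 at 151, 121 and 115 CPM against 708, 654, 703 and 709.96 CPM (-2.43). Gria1 was at 629.8, 664 and 596 CPM and 739, 661, 691 and 668 CPM, and its log2 fold change of -0.13 did not pass the test (adjusted p = 0.151) except under library totals and upper-quartile factors, at -0.30 and -0.20. Per length, Gria4 made up 9.02% ± 0.730 of these subunits in striatum and 40.3% ± 0.863 in cerebellum. NMDA receptor subunits split likewise: the forebrain subunit gene Grin2b was at 123, 84.5 and 77.7 CPM against 8.38, 7.61, 7.09 and 7.25 CPM (3.65), and Grin2c, a granule cell subunit, at 66.4, 52 and 58.7 against 384, 389, 391 and 403 CPM (-2.73). Per length, Grin2c still led the 4 Grin2 subunits in both regions, with 66.4% ± 2.79 in striatum and 96.7% ± 0.452 in cerebellum. Grin2b took 21.5% ± 2.74 and 0.38% ± 0.0347. By fold change, AMPA and NMDA receptor subunit genes were thus found on both sides. Grid1, a delta receptor gene, was higher in striatum at 82.3 to 96.3 CPM against 21.3 to 25.1 (1.93). Auxiliary subunits followed: Neto1 (6.19), Cacng3 (4.2) and Shisa7 (4.16) were higher in striatum, Shisa6 (11.2, 7.48 and 7.2 CPM against 243, 257, 259.6 and 259; -4.89) and Cacng5 (-2.65) in cerebellum.

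Metabotropic glutamate receptors and their scaffolds exchanged members. Grm5, coupled to calcium release in projection neurons, was at 718, 597 and 520.2 CPM in striatum and 12.3, 21.2, 11.9 and 12.9 CPM in cerebellum (5.39). The presynaptic Grm4 of granule cells was the reverse, at 85.2, 79.8 and 79.8 CPM against 294, 289, 304 and 347 CPM (-1.92). Striatal replicate 1 was the highest of its region for both genes. The Homer scaffolds, which bind the Grm5 product, divided the same way. Homer1 was at 384, 339.9 and 352 CPM against 52, 44.9, 58 and 38 CPM (2.9), and Homer3 at 8.51, 9.04 and 10.6 against 213, 227, 233 and 225 CPM (-4.58). Homer1 made up 85.1% ± 0.626 of Homer transcripts per length in striatum and 5.58% ± 0.936 in cerebellum, where Homer3 held 90.6% ± 1.1.

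For GABA-A receptors, Gabra4 was the leading alpha subunit of striatum and Gabra6 of cerebellum. Gabra4, found in extrasynaptic receptors, was at 384, 322 and 353 CPM against 43.7, 35.7, 43.4 and 42.1 CPM (3.1) and took 48.3% ± 2.47 of the alpha subunit level per length in striatum. Gabra6 took 70.0% ± 1.58 in cerebellum and 0% in striatum. Gabra5 (4.37) and Gabrg3 (4.75) were higher in striatum, Gabrb2 (-0.91) and the metabotropic subunit gene Gabbr2 (-1.81) in cerebellum.

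**Figure D4:**
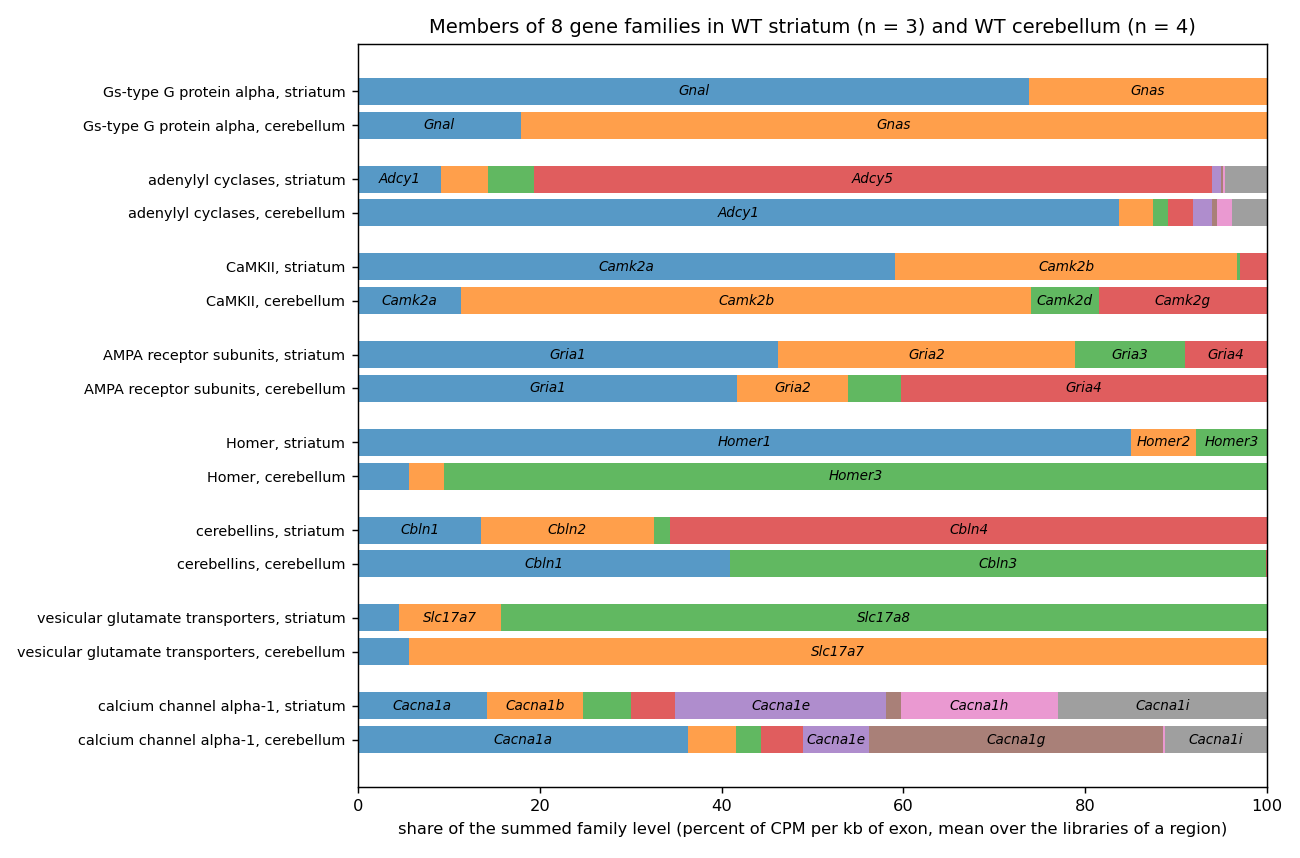
Share of each member in the summed level of 8 gene families (percent of CPM per kilobase of exon, mean over the libraries of a region), striatum (n = 3) above cerebellum (n = 4); colours separate members within a family. Adcy5, Homer1 and Gnal lead their families in striatum, with 74.6, 85.1 and 73.9%, and Adcy1, Homer3 and Gnas in cerebellum.

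Receptors for modulatory transmitters differed by class. Of 12 serotonin receptor genes tested, 10 were at least 2-fold higher in striatum and none in cerebellum. Htr2c was at 97.8, 100.02 and 80.8 CPM against 19.3, 18.9, 3.39 and 24.1 CPM (2.5). Its level in cerebellar replicate 3, the library low in choroid plexus genes, was the lowest of its region. The choroid plexus is known to make this receptor, but its part in these levels was not tested. Htr1b (3.22), Htr1d (5.33), Htr2a (4.89), Htr4 (4.99) and Htr6 (4.47) were also higher. Among acetylcholine receptors the muscarinic Chrm1 was at 217, 233 and 225 CPM against 0.615, 1.21, 0.301 and 0.588 CPM (8.39) and Chrm4, of direct pathway neurons, at 114, 129 and 114 CPM against 1.89, 2.18, 1.42 and 2.23 (5.94). Chrnb4, a nicotinic subunit gene, was lower in striatum (-2.35), the single acetylcholine receptor gene lower by 2-fold, beside 3 such genes without striatal replicate 1. The opioid receptor genes Oprk1 (44.9, 65.8 and 40.7 CPM against 0.805, 1.07, 0.816 and 0.705; 5.9), Oprd1 (5.19) and Oprm1 (4.73) and the tachykinin receptor gene Tacr1 (7.97) were higher in striatum. Cnr1, the cannabinoid receptor gene, was lower there, at 489, 277 and 268 CPM against 691, 578, 659 and 656 CPM (-0.91), a difference under 2-fold. Of 15 adrenergic, histamine and adenosine receptor genes tested, 5 were called higher in striatum, each by at least 2-fold, and 4 in cerebellum, 1 of them by that fold or 2 without striatal replicate 1 or 3; the median was 0.05. With striatal replicate 1 left out, the calls of this list at any fold were 5 and 6. Hrh3, the presynaptic histamine receptor gene, was at 206, 207 and 138 CPM against 16.3, 17.9, 17.1 and 17.9 (3.41). Th, the rate-limiting enzyme gene of dopamine synthesis, which is known from the axons' distant cell bodies, was at 8.86, 10.4 and 13.1 CPM and 12.2, 10.8, 8.55 and 8.74 CPM and did not pass the test (0.10, adjusted p = 0.627).

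Of 19 genes of amino acid transmitter synthesis and transport, 5 were at least 2-fold higher in striatum and 7 in cerebellum, with a median log2 fold change of -0.34. Both GABA-synthesising enzyme genes were higher in striatum, Gad1 (898, 809 and 1054 CPM against 670.2, 639, 623 and 608; 0.54) by less than Gad2, and so was the vesicular GABA transporter gene Slc32a1 (1.02). Slc1a6, the glutamate transporter gene of Purkinje cells, was at 2.43, 3.27 and 2.85 CPM against 194, 199, 194 and 174 CPM (-6.05), and the neuronal transporter gene Slc1a1 was higher in striatum (2.22). Of 26 neuropeptide and cerebellin precursor genes tested, 14 were at least 2-fold higher in striatum and 7 in cerebellum, with a median log2 fold change of 1.69. Trh, the thyrotropin-releasing hormone gene, was at 4.17, 5.06 and 5.61 CPM and counted in cerebellar replicate 2 alone (8.11), and the granin-related Vgf at 277, 186 and 354 CPM against 19.8, 24, 20.3 and 15.7 (3.77). Cerebellum was the higher region for cholecystokinin (Cck, -2.92), Adcyap1 of the pituitary adenylyl cyclase-activating peptide (0.0868, 0 and 0.586 CPM against 7.34, 13.6, 8.21 and 7.72; -5.34) and chromogranin B (Chgb, -1.17).

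Synaptic adhesion genes and calcium sensors of release were divided as well. Of 32 adhesion genes tested, 12 were at least 2-fold higher in striatum and 5 in cerebellum. The cerebellar count lay near the share over all genes tested, 14.1%, beside 14.7% for striatum. The neurexins, presynaptic partners of the cerebellins and neuroligins, included Nrxn3, higher in striatum (0.37), and Nrxn2 (-0.94), lower, both by less than 2-fold. Their postsynaptic ligands differed more: Lrrtm1 was at 75.9, 75.4 and 82.5 CPM against 6.44, 6.45, 6.57 and 7.09 CPM (3.55), and Lrrtm4 (3.29) and Nlgn1 (1.54) went the same way. Cntnap4, a further adhesion gene of the list, was lower in striatum at 16.3, 13.9 and 11.7 CPM against 87.6, 87.6, 87.4 and 91.3 (-2.66). Among synaptotagmins, the fast release sensor gene Syt1 was higher in striatum (1418, 1291 and 1268 CPM against 602, 586, 618 and 616; adjusted p = 4.98e-07) and its relative Syt2 lower (53.3, 40.8 and 32.1 CPM against 303, 325, 319.98 and 333; -2.93). Under library totals these genes kept their signs, Nrxn3 at 0.20.

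Voltage-gated channels were split member by member. Of 55 potassium channel genes tested, 23 were at least 2-fold higher in striatum and 18 in cerebellum. Kcnv1, a silent subunit gene, was at 88, 91.3 and 79.8 CPM in striatum and 0.0947, 0.388, 0.129 and 0.0392 CPM in cerebellum (9.06). The inward rectifier genes Kcnj4 (209.7, 219.7 and 259.7 CPM against 0.615, 0.921, 0.387 and 0.274; 8.74) and Kcnj2 (4.29), which hold projection neurons at a negative resting potential, were higher, as were Kcna4 (5.31), Kcnip2 (7.07) and Kcnq5 (6.27). The fast-spiking channel gene Kcnc1 was lower in striatum at 180.03, 124 and 125 CPM against 885, 886, 839 and 898 CPM (-2.62), as were the leak channel genes Kcnk3 (-3.53) and Kcnk12 (-4.19). Libraries of the regions did not overlap for any of these potassium channel genes, nor for 9866 of all 15031 genes tested. Of 17 sodium and HCN channel genes, 5 were at least 2-fold higher in striatum and 2 in cerebellum. Scn4b, the sodium channel beta subunit gene, was at 2492, 2289 and 2077 CPM against 127, 163, 146 and 153 CPM (3.96), and Scn3a (6.01) and Scn3b (5.63) were also higher in striatum. The alpha subunit genes Scn2a1 (-0.22) and Scn8a (-0.15) did not pass the test with all libraries (adjusted p = 0.0896 and 0.342), but passed without striatal replicate 1, at -0.34 and -0.35. Of 16 voltage-gated calcium channel genes, 7 were at least 2-fold higher in striatum and 2 in cerebellum. Over all genes tested the shares were 14.7% and 14.1%. The cerebellar counts of the sodium and calcium channel lists lay near that share. Of the T-type subunit genes, Cacna1h was higher in striatum, at 196, 154 and 156 CPM against 2.93, 5.53, 2.96 and 3.96 CPM (5.46), and Cacna1g in cerebellum, at 17.6, 13.9 and 16.1 CPM against 429, 463, 449 and 419.97 CPM (-4.8). Cacna1a, the P/Q-type gene, was at 179, 128 and 176 CPM against 550.2, 547, 567 and 563 (-1.79) and made up 14.2% ± 2.07 and 36.3% ± 0.773 of the alpha-1 subunits per length.

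Calcium handling and its kinases differed in the same manner. Of 22 genes of calcium release, pumps and TRPC channels, 4 were at least 2-fold higher in striatum and 8 in cerebellum. Over all genes tested the shares were 14.7% and 14.1%, and the striatal count lay near the former. The ryanodine receptor gene Ryr3 (425, 315 and 478 CPM against 31.7, 30.9, 40.6 and 31.5; 3.59) and the plasma membrane pump gene Atp2b1 (2.53) were higher in striatum. The endoplasmic reticulum pump gene Atp2a3 was lower, at 8.77, 6.54 and 9.29 CPM against 309.8, 318, 352 and 331 CPM (-5.32). Calcium sensors included Hpca, hippocalcin, at 1249, 1674 and 1590.4 CPM against 53.9, 54.1, 49.7 and 42.7 CPM (4.91), and Nrgn, neurogranin, at 538, 767 and 761 CPM against 4.02, 24.7, 3.01 and 3.76 CPM (6.3), the latter again highest of its region in cerebellar replicate 2. Both sensors were lowest in striatal replicate 1. Camk2a, the kinase gene of forebrain spines, was at 2239, 2332 and 2242 CPM against 109, 147, 115 and 116 CPM (4.22), and its share of the CaMKII transcripts per length was 59.1% ± 1.16 in striatum and 11.4% ± 1.55 in cerebellum. Camk2d (-2.63) was lower in striatum. Camkv, a kinase-like gene without known activity, was at 1049 to 1159 CPM against 3.52 to 12.4 (7.54) and Prkch at 85.4 to 90.2 CPM against 2.88 to 3.93 (4.68). Prkcd was lower in striatum (-2.42).

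Retinoid and thyroid hormone signalling, which shape striatal development, had 10 of 22 tested genes at least 2-fold higher in striatum and 6 in cerebellum. Crym, which encodes a thyroid hormone-binding protein, was at 153, 299 and 278 CPM in striatum and 0.0473, 0.0485, 0 and 0.157 CPM in cerebellum (11.7), with replicate 1 the lowest of the striatal libraries. The retinoid receptor genes Rarb (218, 202 and 187 CPM against 12.1, 11.3, 11.2 and 8.11; 4.25) and Rxrg (145, 146 and 133 CPM against 0.426, 0.436, 0.215 and 0.274; 8.7) were higher in striatum, and Rara (-1.89), the synthesising enzyme gene Aldh1a1 (-2.71) and the degrading enzyme gene Cyp26b1 (-3.29) lower. The thyroid hormone receptor gene Thrb was higher in striatum (2.48) and the hormone-responsive corepressor gene Hr lower (-2.66).

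Several genes named by the size of their difference belong to no group above. Kif5a, a kinesin motor gene, came first by difference of mean CPM for striatum, a measure that also grows with transcript length, at 6309, 3630.1 and 4239 CPM against 1055, 1363, 1199 and 1244 CPM (1.96), and was highest in replicate 1. Arpp21, a cAMP-regulated phosphoprotein gene that overlaps an unnamed gene on the opposite strand, was at 2199, 2538 and 2339 CPM against 94.9, 86.4, 96.3 and 90.9 CPM (4.68). Ddn, dendrin of dendrites, was at 1696, 1865 and 1839 CPM against 1.18, 2.81, 1.5 and 1.76 CPM (9.96). Ano2, a calcium-activated chloride channel gene, was at 40.3, 78.1 and 50.9 CPM against 0 to 0.0947 (9.83), Ptprv, a phosphatase gene, at 45.3, 33.7 and 36.9 CPM against 0.043 to 0.194 (8.66) and Krt9, a keratin gene, at 37.9, 50.2 and 45.4 CPM against 0 to 0.242 (9.04). Fbxl16 (2896, 2708 and 2699.97 CPM against 330.3, 335, 346 and 335; 3.04) and Ndrg4 (1.46) were expressed in both regions and higher in striatum. For cerebellum, Crtam, an adhesion molecule gene better known from T cells, was at 77.3, 79.1, 77.1 and 85.1 CPM against 0, 0.0779 and 0 CPM (-11.18), and Dao, the D-amino acid oxidase gene, at 67.9, 81.4, 78 and 75.5 CPM against 0.0868, 0.0779 and 0.0837 CPM (-9.72). Cnpy1 was at 79.5, 68.5, 74 and 78.1 CPM with a count in striatal replicate 1 alone (-11.09). Cdr1, counted by symbol and overlapped by a gene on the opposite strand, was at 58.7, 63.4, 63 and 58.2 CPM with a count in striatal replicate 3 alone (-10.79). Their cerebellar libraries lay close together. Iltifb, an interleukin gene, had 21.4, 20.2, 19.3 and 21.6 CPM and no count in striatum, at least 249.6-fold lower there; it has a near-identical relative, and its counts are uncertain for that reason. The sodium-glucose transporter gene Slc5a1 was at 16.2, 17.3, 16.1 and 15.7 CPM, at least 197-fold above striatum.

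Glial lists had smaller median differences than the lists of neuron types above. The medians were -1.9 for Bergmann glia, -0.82 for astrocytes, 0.66 for myelin and 1.1 for oligodendrocyte precursors. Bergmann glia genes were higher in cerebellum, 10 of 12 by at least 2-fold, among them Gdf10 (172, 196, 189 and 180.4 CPM against 14.9, 10.1 and 13.4 CPM in striatum; -3.85) and Hopx (-3.58). Of 14 astrocyte genes, 9 were called higher in cerebellum and 3 in striatum, 6 and 2 by at least 2-fold. Slc1a2, the main forebrain glutamate transporter gene, was at 4854, 3818 and 3898 CPM against 1158, 1290.05, 1138 and 1108 CPM (1.84), and its cerebellar counterpart Slc1a3 at 761, 706 and 737 against 1724, 1675, 1703 and 1686 CPM (-1.21). The water channel gene Aqp4 (-2.04), S100b (-2.07) and Aldoc (-1.4), which is also known from Purkinje cell stripes, were lower in striatum, and Mfge8 (1.83) was higher. Aldh1l1, found in all astrocytes, was at 60.2, 63 and 67.7 CPM and 76.9, 66.6, 73.6 and 69.9 CPM and did not pass the test (-0.17, adjusted p = 0.0724), but passed under library totals (-0.34) and without striatal replicate 3 (-0.22).

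Microglial genes were higher in striatum without exception, all 12 of them by at least 2-fold, with a median log2 fold change of 1.71. Csf1r, the survival receptor gene of microglia, was at 159, 155 and 164 CPM against 40.7, 40.4, 37.6 and 37.9 CPM (2.03), P2ry12 at 55.3, 58.4 and 60.4 CPM against 15.8, 10.8, 13.7 and 13.9 (2.1) and Tmem119 at 29.2, 33.9 and 40.6 CPM against 7.62, 8.53, 7.13 and 6.00 (2.24). Short genes such as C1qa, at 33.8, 56.1 and 68.4 CPM against 17.1, 23.1, 20.4 and 18.1 CPM (1.43), were lowest in striatal replicate 1, whose length trend is given above. Oligodendrocyte precursor genes were higher as well, 6 of 9 by at least 2-fold, with Gpr17 at 76.8, 63.3 and 57.6 CPM against 12.5, 14, 13.2 and 12.3 (2.34) and Pdgfra at 79.7 to 92.8 CPM against 25 to 27.5 (1.71). Of 15 myelin genes, 14 were higher in striatum, 3 of them by at least 2-fold; 11 remained called under library totals. Mbp, myelin basic protein, was at 4320.4, 3704 and 4165 CPM against 2414, 2660.4, 2681 and 2526 CPM (0.66), and Mobp at 643, 466 and 487 against 184, 231, 236 and 224 (1.28). No endothelial or pericyte gene of 12 differed by 2-fold. By less, 7 were higher in striatum and 1 in cerebellum, or 4 and 2 under library totals. The calls without striatal replicate 1 were 6 and 0.

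**Figure D5:**
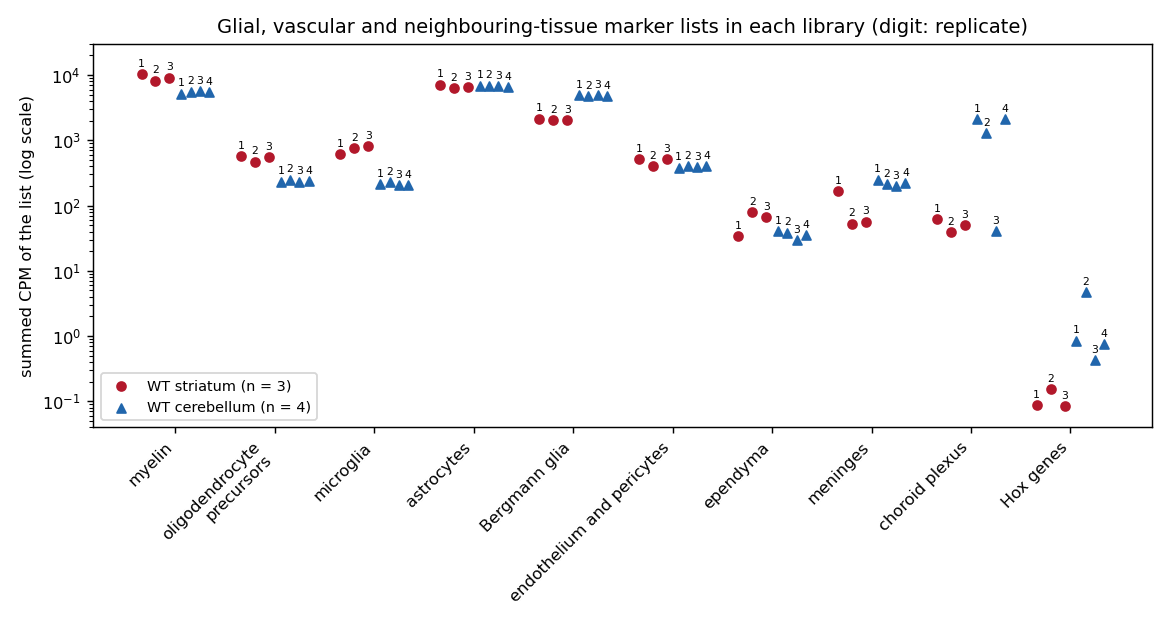
Summed CPM (log axis) of 10 marker lists in each library; circles are the 3 WT striatal and triangles the 4 WT cerebellar libraries, each with its replicate number. Choroid plexus genes reach 1294 to 2125 CPM in 3 cerebellar libraries but 40.8 CPM in replicate 3, and the Hox sum of cerebellar replicate 2 stands above the others.

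Markers of tissue that borders the dissections varied between libraries. Ttr, transthyretin of the choroid plexus, was at 1951, 1164, 12.7 and 1911 CPM in the cerebellar libraries and 17.8, 0.701 and 10.1 CPM in the striatal ones (-7.06, adjusted p = 0.028), so that cerebellar replicate 3 lay within the striatal range. Over the choroid plexus list the sum was 1294 to 2125 CPM in the other 3 cerebellar libraries, 40.8 CPM in replicate 3 and 39.3 to 61.5 CPM in striatum. Of 8 choroid plexus genes tested, 5 were at least 2-fold higher in cerebellum; the number was 7 without cerebellar replicate 3, 3 without cerebellar replicate 4 and 2 without any 1 striatal library. Ttr itself passed without cerebellar replicate 3 (adjusted p = 6.33e-05) and missed the threshold without cerebellar replicate 4 or any 1 striatal library (adjusted p = 0.0506 to 0.086). Meningeal genes summed to 198.2 to 249.5 CPM in cerebellum and 53.1 to 168.1 CPM in striatum, replicate 1 being the highest striatal library, and 5 of 8 were at least 2-fold higher in cerebellum, or 8 without that library. Ependymal genes summed to 29.6 to 40.8 CPM in cerebellum and 33.7 to 78.5 CPM in striatum, replicate 1 being the lowest there; 3 of 8 were at least 2-fold higher in striatum, or 5 without it. Of 11 markers of neocortical projection neurons tested, 4 were at least 2-fold higher in each region, Fezf2 and Emx2 among the striatal ones (6.32 and 9.25). In striatum, Tbr1 of the same list was at 0.955, 1.87 and 0.753 CPM and Neurod6 at 0, 1.09 and 0.335 CPM, and Slc17a7 is given above. The whole list summed to 398.8 to 421.8 CPM in striatum and 714.8 to 769.1 CPM in cerebellum, where most of it was Slc17a7. Nkx2-1, of the pallidal lineage and its interneurons, was at 9.29, 5.69 and 5.86 CPM in striatum and 0 in all cerebellar libraries, at least 209.6-fold higher. How much RNA of adjoining tissue each library holds was not tested.

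Activity-regulated genes were mostly higher in striatum, 13 of 20 by at least 2-fold and 4 lower by that fold. At any fold the calls were 13 and 5, or 12 and 3 without striatal replicate 1. Egr3 was at 135, 99.3 and 181 CPM against 0, 0.679, 0.215 and 0.157 CPM (9.05), Egr2 at 26.8, 18.7 and 19.2 CPM against 0.0473, 0.0485, 0.0859 and 0.0392 (8.44) and Fosb at 33.3, 38.2 and 47.3 CPM against 0.615, 1.07, 1.72 and 0.353 (5.4). Arc, of dendritic spines, was at 96.4 to 122 CPM against 24.7 to 28.8 (2.07). Fos itself varied widely in both regions, at 7.82, 17.8 and 9.04 and 6.39, 14.3, 21.3 and 4.9 CPM, and did not pass the test (-0.02, adjusted p = 0.982). Nr4a2 (0.955, 2.26 and 0.837 CPM against 11.6, 8.83, 24.4 and 5.76; -3.2) and Ier2 (-2.71) were lower in striatum, the call of Nr4a2 being lost without striatal replicate 1 (adjusted p = 0.0562).

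Genes whose mutations cause movement disorders lay on both sides. Thap1 was higher in striatum, at 14.1, 15.2 and 16.1 CPM against 9.75, 7.71, 9.92 and 7.88 CPM (0.78, adjusted p = 0.000459). Of 24 dystonia genes tested, 7 were at least 2-fold higher in striatum and 2 in cerebellum. The striatal ones included Gnal, Adcy5, Pde10a and Hpca, given above, and the ion channel family gene Ano3 (338, 268 and 285 CPM against 33.1, 31.9, 36.3 and 38.9; 3.08). Prrt2, of paroxysmal dyskinesia (-1.08), and Prkra (-1.46) were lower in striatum. Tor1a, the gene of the dystonia DYT1, was at 18.3, 25.8 and 22.7 CPM and 26, 23.7, 24.4 and 25 CPM and did not pass the test (adjusted p = 0.265), except under library totals (-0.32). Of 36 ataxia genes tested, 4 were at least 2-fold higher in striatum and 11 in cerebellum. Car8, Cacna1g, Itpr1 and Cacna1a were among the cerebellar ones, and Pdyn and Atxn1 (193, 143 and 148 CPM against 62.4, 64.2, 66.5 and 61.4; 1.34) among the striatal ones. Thus 7 of 24 and 11 of 36 stood beside 14.7% and 14.1% of all genes; both lists were put together with results of these data known.

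In housekeeping genes striatal replicate 1 stood apart from the other striatal libraries. The summed level of cytosolic ribosomal protein genes was 1777 CPM in it, 4050 and 4048 CPM in striatal replicates 2 and 3, and 2898 to 2941 CPM in cerebellum. Cerebellum thus lay between the striatal libraries. Among 79 of these genes tested the median log2 fold change was 0.14, or -0.01 under library totals, with 9 called higher in striatum and 5 in cerebellum. Without striatal replicate 1 the median was 0.40 and the calls were 49 and 5. With all libraries, 6 were at least 2-fold higher in striatum and 1 in cerebellum. The number of 2-fold calls for striatum was 3 without striatal replicate 2 or 3, and that for cerebellum 2 without striatal replicate 1 or 3 or cerebellar replicate 4. Rpl5, Rpl31 and Rpl23a are among them, and since ribosomal genes have many near-identical copies their counts are uncertain. Genes of oxidative phosphorylation summed to 5501 CPM in striatal replicate 1, 8989 and 8944 CPM in the other striatal libraries and 9362 to 9699 CPM in cerebellum. Among 79 tested the median was -0.28, with 19 called higher in cerebellum and 1 in striatum, beside 32.7% and 31.5% of all genes. The calls for cerebellum were 27 under upper-quartile factors and 31 under library totals (median -0.44). Without striatal replicate 1 the calls were 31 and 16, with a median of -0.05. Those at least 2-fold different were few, 4 and 1, such as Cox7a1 at 0.261, 0.389 and 0.837 CPM against 4.02, 4.99, 4.98 and 3.76 CPM (-3.14).

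Genes higher in the regions differed in their features. Median exon length was 4575 bases for genes at least 2-fold higher in striatum, 3873 for those higher in cerebellum and 4440 for all tested, and median gene span 34110, 21217 and 24847 bases. Median GC content of transcripts was 50.2%, 51.9% and 49.8%. Long noncoding RNA genes made up 3.74% of the striatal set, 7.13% of the cerebellar set and 3.23% of all tested. Striatal replicate 1, with its trend over exon length, belongs to the region with the longer genes, and its part in this was not tested. Across genes, the rank correlation of log2 fold change with exon length was 0.105 and with transcript GC -0.037 over 14851 genes, which share their libraries and are not independent. Chromosomes held similar shares, from 11.7% of tested genes on chromosome 11 to 18.2% on chromosome 12 for striatum, and from 9.56% on chromosome X to 16.1% on chromosome 11 for cerebellum.

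The comparison was repeated in the 7 Thap1 cKO libraries, which share no sample with the WT ones. There 11225 of 15080 genes tested differed between the regions (74.4%), 5541 higher in striatum and 5684 in cerebellum. Of the WT calls, 9558 were also tested in cKO, and 8854 of those, or 92.6%, were called there in the same direction and 18 in the opposite one. Of the WT calls of at least 2-fold, 4135 of 4248 tested were called in the same direction and none in the opposite. Ppp1r1b had a log2 fold change of 4.16 in cKO beside 4.09 in WT, Cbln3 -12.56 beside -12.89 and Car8 -7.79 beside -8.17. Across 14889 genes tested in both, the log2 fold changes correlated at r = 0.974, as a description of genes that are not independent. The difference between the genotypes in the regional fold change was called for 60 of 15401 genes.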

How the data were processed

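Raw gene counts were deposited by the authors, 1 table per library, for 14 libraries of mouse striatum and cerebellum; the 7 WT libraries were compared and the 7 cKO libraries repeated the comparison. Build mm10 and the tools HTSeq 0.6.1p1, STAR, cutadapt 1.13 and DESeq2 are listed, per the submitters' processing notes, without roles; no source used here gives their settings, strand included. Of 23337 genes, 15031 passed edgeR's filter (at least 10 counts, total of 15). Counts were fitted with edgeR 4.0.16 (TMM factors, robust quasi-likelihood) in R 4.3.3, with region as the only term, and adjusted by Benjamini and Hochberg over all genes tested. A test against 2-fold used glmTreat. Alternatives used DESeq2 1.42.0 and limma 3.58.1, other scalings and filters, and each library left out. The method was run on simulated counts that had the spread of the cerebellar libraries and far fewer changed genes than were called here. It was not tested at the wider spread of the striatal libraries. CPM are TMM-scaled. Depth was 12595941 to 24331760 counts per library, and intervals of counting error were not computed because libraries are the replicates.

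Symbols matched RefSeq by current name for 88.9% and by synonym for 9.85%; exon lengths came from GENCODE vM21 (97.9% of genes), promoters from RefSeq. Samples were grouped by labels alone. The gene lists and the rule for named genes were set with earlier results of these data known. Named by rule were, per direction, the 15 largest log2 fold changes (mean of at least 10 CPM, no overlap), the 10 largest CPM differences, the 10 highest genes under 0.1 CPM in the other region, and list members, led by those with the largest log2 fold change; other members were chosen for their role. Unnamed symbols and mitochondrial genes were skipped, and some genes that these rules name are not reported here.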

Additional observations from a re-analysis of the deposited data

Results flagged for a closer look

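In each set of 4 WT cerebellar libraries, the gap between the highest or lowest library and its neighbour was divided by the range of the set. For 33 of 295 sets, 241 named genes and 54 list sums, this ratio exceeded Dixon's critical value. Chance flags about 1 in 20 of independent sets of normally spread values. These sets share their 4 libraries and some hold near-zero counts, so the 33 cannot be weighed against that rate. The striatal group of 3 was not tested. Replicate 2 was the highest library in 21 of the 33 and the lowest in 5. A ratio of 1 was reached where a single library held the only counts: Dlx2, Emx2, Isl1, Lhx8 and Trh in replicate 2 and Dlx6 in replicate 4. Replicate 1 was the lowest for Shisa6 (0.851). Replicate 2 was also highest for Adcy5 (0.856), Adcyap1 (0.861), Bcl11b (0.878), Camkv (0.92), Drd2 (0.904), Gabra5 (0.939), Grm5 (0.894), Kcnip2 (0.864), Nrgn (0.953), Rgs4 (0.891), Shisa7 (0.902), Slc6a5 (0.849), Sst (0.92), Tac1 (0.881) and Tacr1 (0.863). All of these except Adcyap1 and Slc6a5 are genes higher in striatum. Replicate 2 was the lowest for Camk2d (0.871), Gria4 (0.875), Hopx (0.882) and Scn2a1 (0.866). Replicate 3 was the highest for Ryr3 (0.924). Replicate 4 was the highest for Cntnap4 (0.961) and Dlx6as1 (0.926). Replicate 4 was the lowest for Sp9 (0.886). The summed level of the Hox genes was 4.752 CPM in replicate 2, the highest, beside 0.4296 to 0.852 CPM in the others (ratio 0.902). The summed level of the endocannabinoid enzymes was 1247 CPM in replicate 2, the lowest, beside 1327 to 1337 CPM in the others (ratio 0.889). The summed level of the heterotrimeric G protein subunits was 4087 CPM in replicate 3, the highest, beside 4020 to 4027 CPM in the others (ratio 0.896). What sets these libraries apart was not tested, beyond the sums of marker lists given in the report.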

How the results depend on the processing

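The number of genes called stayed within 1.5 times of 9646 under each of the alternatives run. It was 9625 with DESeq2 size factors, 9827 with upper-quartile factors, 10143 with library totals, 10148 with no filter on low counts, 9053 with a mean of at least 1 CPM, 9611 with DESeq2, 10446 with limma-voom, 9840 with a sex score as covariate, 10648 with all 14 libraries in 1 model, 9221 with the cerebellar libraries thinned to striatal depth and 7831 at an adjusted p under 0.01. Leaving out 1 library at a time gave 8744 calls (without cerebellar replicate 4) to 10849 (without striatal replicate 1), and 4094 to 4486 calls of at least 2-fold. Tested against 2-fold, 2908 to 3404 genes passed. In the cKO libraries, 10681 to 11102 genes were called with 1 library left out. Of the main calls, 8670 were called in the same direction with library totals, 9118 with thinning and 9351 without striatal replicate 1. Scaling moved the balance: 49.1% of calls were higher in striatum with TMM, 43.9% with upper-quartile factors and 37.1% with library totals. Which scaling is nearer to RNA per cell was not tested.

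With the replicate number as a block, 8408 genes were called in the WT libraries, 4203 by at least 2-fold. The numbers were not treated as pairs, since the deviations of equally numbered libraries correlated at 0.132, -0.0766 and 0.134; replicate 4 of cerebellum has no partner.

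Named genes that changed sign were near 0. The log2 fold change of Fos, -0.02, became 0.36 with limma-voom, 0.00 with thinning, -0.47 to 0.44 with 1 library left out, of which 0.20 and 0.14 came without striatal replicate 1 or 3 and 0.09 and 0.44 without cerebellar replicate 2 or 3. That of Th, 0.10, became -0.06 with library totals and without striatal replicate 3, and lay between -0.06 and 0.22 with 1 library left out. The cause was not tested. Depth limits the genes near 0: 3 counts over a group correspond to 0.0826 CPM in striatum and 0.0331 CPM in cerebellum.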

Other observations

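Calcium-binding proteins beside the markers given in the report were divided between the regions, with 7 of 22 tested genes at least 2-fold higher in striatum and 8 in cerebellum. Hpcal4, a relative of hippocalcin, was at 1180.1, 1379 and 1502 CPM in striatum and 55.9, 65, 47.9 and 49.96 CPM in cerebellum (4.63), and Hpcal1, of the same visinin-like family, at 24.8, 29.4 and 32.7 CPM against 280.3, 296, 306 and 298 CPM (-3.35). Necab2 was higher in striatum (189, 271 and 282 CPM against 2.7, 3.69, 1.8 and 1.57; 6.69) and Necab3 lower (4.17, 6.93 and 5.44 CPM against 23.3, 20.9, 26.9 and 27.7; -2.16). Both pairs of relatives thus had 1 member high in each region.

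Of 9 genes of endocannabinoid synthesis and breakdown, 2 were higher in striatum and 6 in cerebellum, mostly by less than 2-fold. Faah, which degrades anandamide, was at 14.8, 12.7 and 12 CPM against 47.8, 51.5, 48.6 and 50.4 CPM (-1.91), and Mgll, which degrades 2-arachidonoylglycerol, was higher in striatum at 176, 213 and 204 CPM against 115, 107, 125 and 128 CPM (0.74). The cyclic GMP-dependent kinase genes also parted: Prkg1 was at 13.7, 17.4 and 13.2 CPM against 59.5, 49.4, 54.3 and 54.9 CPM (-1.88) and Prkg2 at 7.73, 11.5 and 8.87 CPM against 0.805, 1.75, 0.859 and 1.02 CPM (3.09). Under library totals none of these genes changed sign.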
